A study of Mus musculus with 14 samples.

Results

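This report follows 8 genes of zinc handling in mouse oocytes that lack small RNA pathway activity. They are the metallothionein genes *Mt1*, *Mt2* and *Mt3* and the metal-responsive transcription factor gene *Mtf1*. The others are the zinc transporter genes *Slc30a1* and *Slc30a9* and the zinc importer genes *Slc39a6* and *Slc39a10*. The 8 were taken by name from 20337 genes with a symbol in the count files, with the RefSeq transcript of highest mean count standing for a gene, and each of them had only 1 transcript in the files. *Mt1* was chosen by its large log2 fold change between mutant and control oocytes, so its values are described here without a test, and the question is whether the other zinc genes followed it.

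RNA was sequenced from 14 libraries of 20 full-grown, germinal vesicle (GV)-intact oocytes, each pooled from 3 mice according to the labels. The females, 4 to 6 weeks old and of a mixed, mostly C57BL6 background, had received 5 IU of eCG, a gonadotropin that stimulates follicle growth, 48 h earlier. *Ago2* fl/fl oocytes (3 libraries) carry a floxed *Ago2* and no Cre and served as controls for *Ago2* ADH (3 libraries) and *Ago2* null (2 libraries). *Ago2* ADH oocytes have the genotype fl/ADH with Cre, so that the only allele left after deletion encodes an AGO2 without slicer activity. *Ago2* null oocytes come from the same crosses and lack AGO2 after deletion. In both, Cre was driven by the *Zp3* promoter, which is active in growing oocytes, so AGO2 made earlier or in other cells is not affected. *Dicer* KO oocytes (3 libraries), from an oocyte-specific deletion, were compared with *Dicer* WT oocytes (3 libraries).

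Metallothioneins are small cysteine-rich proteins of the cytosol that bind zinc and copper. When free zinc rises, the factor MTF1 binds metal response elements and activates *Mt1*, *Mt2* and *Slc30a1*. Most transporters of the SLC30 (ZnT) family move zinc out of the cytosol, across the plasma membrane or into vesicles and organelles. Those of the SLC39 (ZIP) family move it in. Mouse oocytes are known to take up zinc while they mature, through ZIP6 (*Slc39a6*) and ZIP10 (*Slc39a10*), and to release it in bursts when the egg is activated.

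The promoters of *Mt1*, *Mt2* and *Slc30a1* are shown because these are the genes named above as activated by MTF1. Their values in these libraries also differed in size and direction. The sequences are from RefSeq on GRCm38.p6, run from 250 bases before to 50 bases after an annotated start, and lie on the plus strand. For *Mt1* and *Slc30a1* that start lies inside the gene span given below, not at its first base. Capitals mark matches to the core of the metal response element, searched as TGCACNC or TGCGCNC on both strands. The *Mt1* window is chr8:94178839-94179138, the *Mt2* window chr8:94172368-94172667 and the *Slc30a1* window chr1:191906531-191906830.
*Mt1*: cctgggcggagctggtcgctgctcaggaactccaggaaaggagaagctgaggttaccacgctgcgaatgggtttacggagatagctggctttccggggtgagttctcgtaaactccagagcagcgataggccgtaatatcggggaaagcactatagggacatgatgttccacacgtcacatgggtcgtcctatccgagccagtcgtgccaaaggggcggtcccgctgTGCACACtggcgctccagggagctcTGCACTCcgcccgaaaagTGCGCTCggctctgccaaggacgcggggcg
*Mt2*: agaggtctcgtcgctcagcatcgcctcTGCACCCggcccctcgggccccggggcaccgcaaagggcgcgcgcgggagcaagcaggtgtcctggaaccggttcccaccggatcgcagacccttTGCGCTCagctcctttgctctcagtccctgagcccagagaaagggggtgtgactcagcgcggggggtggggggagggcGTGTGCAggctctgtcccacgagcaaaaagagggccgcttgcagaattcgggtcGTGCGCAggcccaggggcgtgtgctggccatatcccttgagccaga
*Slc30a1*: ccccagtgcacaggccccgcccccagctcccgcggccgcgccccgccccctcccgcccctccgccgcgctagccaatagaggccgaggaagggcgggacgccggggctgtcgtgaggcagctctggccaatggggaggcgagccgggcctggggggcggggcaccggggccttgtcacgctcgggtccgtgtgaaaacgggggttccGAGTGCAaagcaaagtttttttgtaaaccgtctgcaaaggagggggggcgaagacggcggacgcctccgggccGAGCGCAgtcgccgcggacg

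The *Mt1* window held 3 matches, the *Mt2* window 4 and the *Slc30a1* window 2. Among all 32851 promoter windows of this length, 25.7% held at least 1 match, 7.11% at least 2, 1.97% at least 3 and 0.5175% at least 4. The *Mt3* window held 1 match, whereas the windows of *Mtf1* and *Slc30a9* and both windows of *Slc39a10* held none. A window was found for 7 of the 8 genes. The *Mt1* matches stand at -23, 2 and 20 from the start used for its window. A further 2 annotated *Mt1* transcripts start 73 and 103 bases beyond the end of the window. The bases just before those starts lie partly outside it, so matches there, also to the motifs below, were not counted. The core of the antioxidant response element, TGACNNNGC, which is bound by the stress factor NFE2L2, was found 1 time in the *Mt2* window and 1 time in the *Slc30a1* window, and 12.4% of all windows held at least 1. The letters CACGTG, bound by factors of the USF type, were found in none of the 8 windows of these 7 genes and in 7.15% of all windows. A match to such short cores is a description of the sequence and not evidence of a bound site.

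Library totals were 29380403 to 58285057 counts, so 3 counts, the limit that a count of 0 allows, correspond to 0.0515 to 0.102 CPM, the count scaled to the library total. The summed level of 10 oocyte genes was 10290 to 15950 CPM, whereas 10 cumulus and granulosa cell genes summed to 57.2 to 103 CPM, most of it from *Cyp19a1* and *Nr5a2*, with *Foxl2* at 0 in both control groups. This second sum was lower in mutants, at 62.1 to 68.5 CPM in *Ago2* ADH and 57.2 to 59.4 in *Ago2* null oocytes against 76.5 to 83.3 in *Ago2* fl/fl, and at 79.7 to 83.7 CPM in *Dicer* KO against 96.1 to 103 in *Dicer* WT, and its part in the results below was not tested. Single genes of this list went either way. *Inha* was at 1.3 to 1.6 CPM in *Ago2* ADH and 1.3 to 1.5 in *Ago2* null against 0.42 to 0.93 in *Ago2* fl/fl libraries. *Has2* was at 0.25 to 0.58 and 0.23 to 0.34 against 0.76 to 1.01 CPM. Genes of theca and stroma, leukocytes and red cells summed to at most 1.45, 0.475 and 0.74 CPM. By the names of the deposited counts, the libraries of each *Ago2* genotype share a lane tag of their own, so genotype and lane cannot be told apart there. Tags within the *Dicer* series are not described here, so that comparison is not shown to be free of this limit. The targeted gene *Ago2* had log2 fold changes of -0.87 in *Ago2* ADH oocytes and -1.95 in *Ago2* null ones, both past the test, but the count of *Dicer1* rose by 1.26 in *Dicer* KO oocytes, and counts over a whole transcript cannot show which part of it was deleted.

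*Mt1* (NM_013602, chromosome 8, 94178883 to 94180327) was barely detected in controls and was among the more abundant transcripts in all mutants. *Ago2* fl/fl libraries had 51, 48 and 61 counts of *Mt1*. *Ago2* ADH libraries had 7241, 8276 and 5834 counts, and *Ago2* null libraries had 8002 and 9009. *Dicer* WT libraries had 9, 23 and 23 counts, and *Dicer* KO libraries had 3752, 2765 and 4074. The lowest mutant library thus stood far above the highest control library. Groups did not overlap for 60% of all transcripts tested in *Ago2* ADH, 66.9% in *Ago2* null and 54.5% in *Dicer* KO against their controls. As levels scaled with TMM over all 14 libraries, *Mt1* was at 0.950 ± 0.187 CPM (SD, n = 3) in *Ago2* fl/fl, 139 ± 10.4 (n = 3) in *Ago2* ADH and 157 ± 20.3 (n = 2) in *Ago2* null oocytes. It was at 0.451 ± 0.190 CPM (n = 3) in *Dicer* WT and 112 ± 12.4 (n = 3) in *Dicer* KO oocytes. The fitted differences were 152-fold, 170-fold and 244-fold for *Ago2* ADH, *Ago2* null and *Dicer* KO, or 7.25 (standard error, SE, 0.10), 7.41 (SE 0.12) and 7.93 (SE 0.16) on the log2 scale. By size of the log2 fold change, *Mt1* stood 7th of 13801 genes, 6th of 14119 and 3rd of 13614 in these comparisons. No stretch of 36 bases of the *Mt1* transcript was shared with another annotated gene.

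*Mt2* (NM_008630, chromosome 8, 94172618 to 94173567), which lies beside *Mt1* and encodes a near relative, stayed at a low level in every group and passed the test in the *Dicer* comparison but in neither *Ago2* comparison. *Dicer* WT libraries had 4, 13 and 10 counts of *Mt2* and *Dicer* KO libraries had 74, 60 and 113, so the groups did not overlap. The levels were 0.222 ± 0.111 CPM (n = 3) and 2.59 ± 0.568 (n = 3), a rise of 3.52 on the log2 scale (SE 0.42, 11.4-fold, edgeR adjusted p = 1.589e-06). Only 1 of 3 *Dicer* WT libraries reached the count minimum of the filter, against 3 of 3 *Dicer* KO libraries, and the call was also made without that filter. *Ago2* fl/fl libraries had 31, 16 and 13 counts, *Ago2* ADH libraries 101, 22 and 11, and *Ago2* null libraries 22 and 55. The *Ago2* mutant libraries overlapped the controls. The log2 fold changes of 1.31 (SE 0.60, interval of 95% from 0.14 to 2.48) and 1.06 (SE 0.56, -0.03 to 2.15) had edgeR adjusted p = 0.0751 and adjusted p = 0.127. Without *Ago2* ADH replicate 1, the library with 101 counts, the first of these values was -0.05. The files count reads without regard to strand, and 52.9% of the 36-base stretches of the *Mt2* transcript are shared with the antisense gene *Gm45774*, so reads of these genes cannot be told apart.

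The ratio of *Mt1* to *Mt2* per length summarizes how far these neighbors departed from each other. It was 1.53 to 4.37 in *Ago2* fl/fl and 1.65 to 2.14 in *Dicer* WT libraries. It was 66.7 to 494 in *Ago2* ADH, 152 to 339 in *Ago2* null and 33.6 to 47.2 in *Dicer* KO libraries. The *Dicer* KO ratios lay below those of every *Ago2* mutant library. All mutant ratios rest on low *Mt2* counts, 11 to 113 per library, and on reads that may stem from *Gm45774*. Series and lane cannot be told apart between *Ago2* and *Dicer* libraries either. *Mt3* (NM_013603, chromosome 8, 94152607 to 94154148), a metallothionein gene mainly of the brain, had 0 counts in all 14 libraries, which leaves levels below the limits given above possible.

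*Mtf1* (NM_008636, chromosome 4, 124802549 to 124849800), whose product activates the metallothionein genes in response to zinc, was well expressed in every library. Its level was 198, 209 and 212 CPM in *Dicer* WT and 257, 250 and 247 CPM in *Dicer* KO libraries, without overlap. This rise of 0.28 on the log2 scale (SE 0.06, edgeR adjusted p = 6.02e-04) was small beside that of *Mt2*. In *Ago2* fl/fl libraries *Mtf1* was at 190, 201 and 189 CPM, in *Ago2* ADH at 209, 201 and 205, and in *Ago2* null at 196 and 182. The log2 fold changes were 0.13 (SE 0.05, adjusted p = 0.0291) in *Ago2* ADH oocytes and -0.0011 (SE 0.06, adjusted p = 0.991) in *Ago2* null ones. The 3′ end of *Mtf1* overlaps *1110065P20Rik* on the other strand, with 9.03% of the 36-base stretches shared, and that gene had 116 to 171 counts in *Dicer* libraries, where *Mtf1* had 7024 to 8891.

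**Figure D1:**
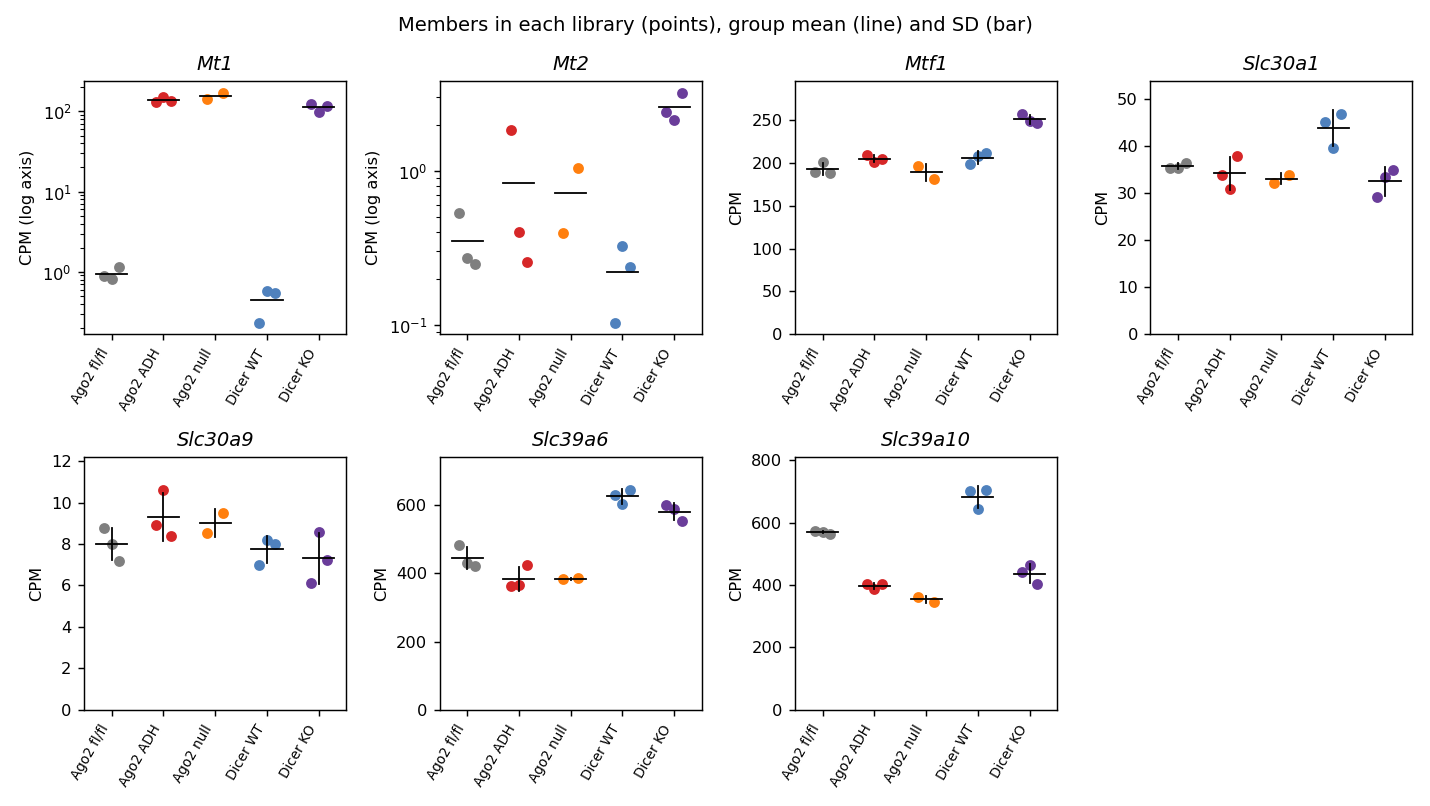
Levels in CPM (TMM-scaled over all libraries) of 7 of the 8 genes in each library, by genotype. Points are libraries, horizontal lines are group means, and vertical bars, drawn where the axis is linear, are SDs. *Mt1* and *Mt2* have log axes. *Mt1* lay above 98 CPM in all mutant libraries and below 1.2 CPM in all control libraries, while *Slc39a10* lay lower in every mutant group than in its controls. *Mt3* had 0 counts and is not drawn.

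*Slc30a1* (NM_009579, chromosome 1, 191906697 to 191913248), which encodes the zinc exporter of the plasma membrane and is a known MTF1 target, fell in *Dicer* KO oocytes. Its level was 45.0, 39.5 and 46.8 CPM in *Dicer* WT and 29.1, 33.4 and 34.8 CPM in *Dicer* KO libraries, without overlap. It fell by 0.43 on the log2 scale (SE 0.09, edgeR adjusted p = 8.48e-04). *Slc30a1* was at 35.4, 35.4 and 36.5 CPM in *Ago2* fl/fl, 33.7, 30.9 and 37.9 in *Ago2* ADH and 32.2 and 33.9 in *Ago2* null libraries. The fold changes of -0.02 (SE 0.08) and -0.08 (SE 0.08) had adjusted p = 0.874 and adjusted p = 0.409, with intervals of 95% from -0.18 to 0.14 and from -0.23 to 0.07. An antisense gene, *1700034H15Rik*, shares 8.33% of the 36-base stretches of *Slc30a1*.

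*Slc39a10* (NM_172653, chromosome 1, 46807544 to 46925776), which encodes the importer ZIP10, was the only one of the 7 genes other than *Mt1* that passed the test in all 3 comparisons of mutants with controls, and it fell in each. *Ago2* fl/fl libraries were at 571, 569 and 565 CPM, *Ago2* ADH libraries at 403, 387 and 402, and *Ago2* null libraries at 361 and 347. *Dicer* WT libraries were at 700, 643 and 705 CPM and *Dicer* KO libraries at 440, 464 and 403. No mutant library reached its controls. On the log2 scale *Slc39a10* fell by 0.47 (SE 0.04, edgeR adjusted p = 4.893e-08) in *Ago2* ADH, by 0.65 (SE 0.05, adjusted p = 3.67e-08) in *Ago2* null and by 0.65 (SE 0.06, adjusted p = 1.259e-07) in *Dicer* KO oocytes. *Ago2* ADH and *Ago2* null were compared with the same 3 control libraries, so these results are not independent.

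*Slc39a6* (NM_139143, chromosome 18, 24579881 to 24603817), which encodes ZIP6, the partner of ZIP10, lay lower in mutants by an amount that did not pass an FDR of 1%. It was at 482, 432 and 421 CPM in *Ago2* fl/fl, 363, 365 and 426 in *Ago2* ADH, and 383 and 387 in *Ago2* null libraries. It was at 629, 603 and 646 CPM in *Dicer* WT and 601, 590 and 554 in *Dicer* KO libraries. One *Ago2* ADH library overlapped the controls, and the other mutant groups did not. The log2 fold changes were -0.16 (SE 0.06, adjusted p = 0.0356), -0.18 (SE 0.06, adjusted p = 0.0221) and -0.11 (SE 0.06, adjusted p = 0.137). In *Ago2* ADH oocytes *Slc39a6* passed an FDR of 1% without *Ago2* ADH replicate 3, the library at 426 CPM, where the value was -0.25.

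*Slc30a9* (NM_178651, chromosome 5, 67306955 to 67356142), which encodes a zinc transporter of mitochondria, passed no test. It was at 8.77, 8.01 and 7.20 CPM in *Ago2* fl/fl, 8.92, 10.6 and 8.37 in *Ago2* ADH, and 8.54 and 9.49 in *Ago2* null libraries. It was at 7.01, 8.21 and 8.01 CPM in *Dicer* WT and 6.11, 8.57 and 7.22 in *Dicer* KO libraries, and mutants overlapped controls throughout. The log2 fold changes were 0.27 (SE 0.12), 0.20 (SE 0.13) and -0.09 (SE 0.17), with adjusted p = 0.0799, adjusted p = 0.219 and adjusted p = 0.693.

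Of the 7 genes other than *Mt1*, 6 passed the filter and *Mt3*, with 0 counts, did not. In *Ago2* ADH against *Ago2* fl/fl, 0 rose and 1 fell, in a comparison where 40.7% of all 18835 transcripts tested passed the test (20.5% up and 20.1% down). In *Ago2* null against *Ago2* fl/fl, 0 rose and 1 fell, where 37.2% of 19236 transcripts passed (18.1% up and 19.1% down). In *Dicer* KO against *Dicer* WT, 2 rose (*Mt2* and *Mtf1*) and 2 fell (*Slc30a1* and *Slc39a10*), where 34.5% of 18570 passed (16.7% up and 17.8% down). DESeq2 made the same numbers of calls, 1, 1 and 4, and at an unadjusted p under 0.05 there were 5, 2 and 4. Shares of all transcripts under 0.05 were not counted, but at an FDR of 5% already 9893 of 18835, 9473 of 19236 and 8578 of 18570 passed. Nothing is therefore read from such unadjusted counts, here or below. The median log2 fold change of the 6 was 0.058, -0.041 and -0.10, beside 0.0069, 0.0018 and -0.0044 over all transcripts tested.

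Levels of different genes were compared as CPM per kilobase of transcript. In *Ago2* fl/fl oocytes *Slc39a6* was highest (115 CPM per kb), followed by *Slc39a10* (103), *Mtf1* (25.3), *Slc30a1* (6.81), *Mt1* (1.73), *Slc30a9* (1.40), *Mt2* (0.686) and *Mt3* (0). *Mt1* and *Slc30a9* overlapped between libraries there, and the other neighbors in this order did not. In *Ago2* ADH oocytes *Mt1* moved to the first place (254 CPM per kb), above *Slc39a6* (99.1) and *Slc39a10* (72.2). The same order at the top held in *Ago2* null oocytes, with 287, 99.1 and 64.4 CPM per kb, and in *Dicer* KO oocytes, with 204, 150 and 79.3 CPM per kb. Ranked per length among 20241 genes, *Mt1* stood 8554th in *Ago2* fl/fl and 9956th in *Dicer* WT oocytes, and 191st, 171st and 233rd in *Ago2* ADH, *Ago2* null and *Dicer* KO oocytes. *Mt2* stood 6109th at its highest, in *Dicer* KO oocytes.

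*Ago2* ADH oocytes, which lack slicing, were also compared with *Ago2* null oocytes, which lack the protein. The count of *Ago2* itself was lower in *Ago2* ADH than in *Ago2* fl/fl oocytes (log2 fold change -0.87), so slicing and dose are not fully separated. Here 0 of the 6 tested genes passed the edgeR test, where 0.119% of 19306 transcripts did (0.0673% higher and 0.0518% lower in *Ago2* ADH). With so small a share over all transcripts, this count says little about the 6. DESeq2 also called 0, and at an unadjusted p under 0.05 there was 1, *Slc39a10*. *Slc39a10* was higher in *Ago2* ADH, by 0.16 on the log2 scale (SE 0.06, edgeR adjusted p = 0.359), with no overlap between the libraries, as for 25.9% of all transcripts tested. *Mt1* differed by -0.18 (SE 0.08) and its libraries overlapped. For *Mt2* the difference was 0.23 (SE 0.63, interval of 95% from -0.998 to 1.47), and without *Ago2* ADH replicate 1 it was -1.12.

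The effect of *Ago2* ADH was then compared with that of *Dicer* KO by an interaction term, although the *Ago2* and *Dicer* libraries carry different lane tags, so that series and lane cannot be told apart, and reads had 36 or 50 bases. For 0 of 6 genes did the effects differ at an FDR of 1% (edgeR), where 3.55% of 19500 transcripts passed (1.2% up and 2.35% down). DESeq2 called 0, and 3 (*Mt2*, *Mtf1* and *Slc30a1*) had an unadjusted p under 0.05. The effect on *Mt2* was lower in *Ago2* ADH by 2.27 (SE 0.81, edgeR adjusted p = 0.0871). Without *Ago2* ADH replicate 1, the difference was -3.61 with adjusted p = 0.00337, so the call for *Mt2* turned on that library. For *Slc30a1* the difference was 0.37 (SE 0.13, adjusted p = 0.0751), for *Mtf1* -0.20 (SE 0.07, adjusted p = 0.0895) and for *Slc39a10* 0.13 (SE 0.08, adjusted p = 0.325).

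The wider set of zinc genes, the metallothioneins, *Mtf1* and all genes of the SLC30 and SLC39 families in the files, included genes that rose and genes that fell. Of 28 such genes other than *Mt1*, 24 were tested in *Ago2* ADH oocytes, where 3 rose and 3 fell. In *Ago2* null oocytes 25 were tested, 2 rose and 3 fell. In *Dicer* KO oocytes 24 were tested, 2 rose and 5 fell. The genes that passed were thus 6 of 24, 5 of 25 and 7 of 24, beside 40.7%, 37.2% and 34.5% of all transcripts tested. The medians were 0.065, 0.12 and -0.090 on the log2 scale. Between *Ago2* ADH and *Ago2* null oocytes 0 of 24 passed the edgeR test, where 0.119% of 19306 transcripts did, so this count says little about them. DESeq2 also called 0 of the 24, and 3 had an unadjusted p under 0.05. *Slc39a14* in both *Ago2* comparisons and *Slc39a4* in the *Dicer* comparison reached the count minimum in mutant libraries alone, and *Slc30a10* and *Slc39a12* reached it in *Ago2* fl/fl but in neither *Ago2* null library.

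Among the exporters, *Slc30a4* and *Slc30a5*, which load zinc into vesicles and the Golgi, fell in all 3 comparisons. *Slc30a4* was at 96.1 to 100 CPM in *Ago2* fl/fl, 64.2 to 68.5 in *Ago2* ADH and 68.8 and 69.9 in *Ago2* null libraries, and at 119 to 136 CPM in *Dicer* WT and 82.9 to 91.0 in *Dicer* KO libraries. It fell by 0.50 (SE 0.06), 0.46 (SE 0.06) and 0.54 (SE 0.07) on the log2 scale, with no overlap of mutants and controls. *Slc30a5* fell by 0.57 (SE 0.08), 0.47 (SE 0.10) and 0.38 (SE 0.08), and its *Ago2* null call was lost without *Ago2* null replicate 1 (-0.32). *Slc30a3*, known from synaptic vesicles, fell by 0.55 (SE 0.08, edgeR adjusted p = 1.846e-05) in *Dicer* KO oocytes, where it was at 82.3 to 103 CPM against 129 to 147 in *Dicer* WT. Its log2 fold changes in *Ago2* ADH and *Ago2* null oocytes were -0.01 (SE 0.06) and -0.0051 (SE 0.06). The difference between its *Ago2* ADH and *Dicer* KO effects was 0.48 (SE 0.11, adjusted p = 0.00737). Of 25 zinc genes tested it was the only one past this test, beside 3.55% of all 19500 transcripts, so nothing particular to zinc genes is read from this count. The call held without *Ago2* ADH replicate 1, *Dicer* WT replicate 3 or *Dicer* KO replicate 3 and was lost without any other single library of these 4 groups, with values of 0.40 to 0.57. *Slc30a2*, which loads zinc into vesicles of secretory cells, rose by 1.16 (SE 0.17, adjusted p = 9.694e-06) in *Ago2* ADH oocytes, from 2.34 to 2.43 CPM in the controls to 4.58 to 5.67 CPM.

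Among the importers, the genes that rose in *Ago2* mutants had low levels in the *Ago2* libraries. *Slc39a4*, the importer of intestinal zinc uptake, had 14, 17 and 24 counts in *Ago2* fl/fl and 73, 61 and 41 in *Ago2* ADH libraries. This was a rise of 1.84 on the log2 scale (SE 0.39, edgeR adjusted p = 6.78e-04). *Slc39a1*, a widely expressed importer of the plasma membrane, rose by 1.18 (SE 0.24, adjusted p = 3.83e-04) in *Ago2* ADH oocytes and by 1.03 (SE 0.30, adjusted p = 0.00932) in *Ago2* null ones. The second of these calls was lost without *Ago2* fl/fl replicate 2 (0.86), *Ago2* fl/fl replicate 3 (0.87) or *Ago2* null replicate 2 (0.58), and *Ago2* null overlapped the controls. *Slc39a1* was at 2.05 ± 0.921 CPM (SD, n = 3) in *Ago2* fl/fl but at 36.6 ± 4.19 (n = 3) in *Dicer* WT oocytes, and its log2 fold change in *Dicer* KO was 0.17 (SE 0.10, edgeR adjusted p = 0.164). *Slc39a7*, which releases zinc from the endoplasmic reticulum, rose by 0.82 (SE 0.21, adjusted p = 0.00354) in *Ago2* null oocytes. This call was lost without *Ago2* fl/fl replicate 2 or 3 or *Ago2* null replicate 1 or 2, with values of 0.76 to 0.87. *Slc39a10* was the importer that fell in all 3 comparisons. The fourth metallothionein gene of the cluster, *Mt4*, known from stratified epithelia, passed no test, with log2 fold changes of -0.32 (SE 0.13), -0.37 (SE 0.13) and 0.39 (SE 0.30).

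**Figure D2:**
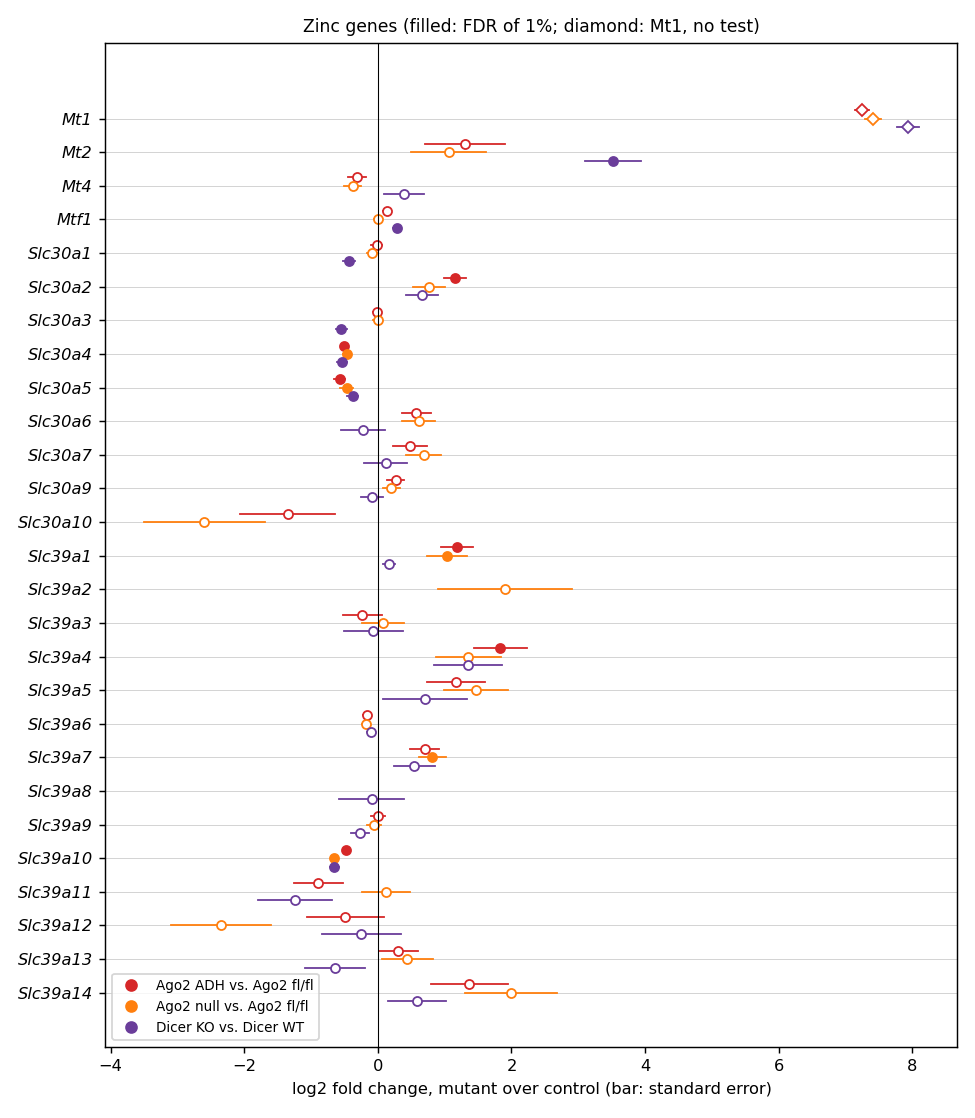
Log2 fold change of the zinc genes tested, with mutant over control on the x axis and 1 row for each gene, colored by comparison. Bars are SEs, filled circles passed an FDR of 1% and open circles did not, and the diamonds of *Mt1* carry no test. *Mt1* lies beyond 7 in every comparison, the next highest value is *Mt2* in *Dicer* KO at 3.52, and *Slc30a4*, *Slc30a5* and *Slc39a10* lie below 0 in all 3.

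To see whether other genes along the chromosome differed too, the 5 nearest genes with counts on either side of the metallothionein cluster were examined. Of these 10, 7 were tested in *Ago2* ADH oocytes and 4 passed the test, 8 were tested in *Ago2* null and 3 passed, and 7 were tested in *Dicer* KO and 2 passed. Over all transcripts these shares were 40.7%, 37.2% and 34.5%, and with so few genes nothing particular to the neighbors is read from these counts. The closest tested genes were *Bbs2*, a gene of the ciliary BBSome, on the side of *Mt4*, and *Nup93*, a nuclear pore gene, on the side of *Mt1*. *Nup93* fell by 0.24 (SE 0.06) in *Ago2* ADH and by 0.25 (SE 0.07) in *Dicer* KO oocytes, and *Bbs2* fell by 0.37 (SE 0.10) in *Ago2* ADH oocytes and by 0.59 (SE 0.11) in *Ago2* null ones. *Nudt21*, which encodes a factor of mRNA 3′ end processing, rose by 1.11 (SE 0.09) in *Ago2* ADH oocytes and by 1.27 (SE 0.10) in *Ago2* null ones, and its value in *Dicer* KO was 0.27 (SE 0.13, edgeR adjusted p = 0.0987). *Herpud1*, a gene of the endoplasmic reticulum stress response, rose by 2.89 (SE 0.59) in *Ago2* ADH oocytes and by 2.73 (SE 0.68) in *Ago2* null ones, from 2 to 6 counts in the controls to 20 to 38 in the mutants, so that it passed the filter through the mutant libraries alone. *Cpne2* rose by 2.49 (SE 0.63) in *Dicer* KO oocytes, from 2 to 8 counts to 13 to 27, and likewise passed the filter through the mutant libraries alone. Such genes had to be higher in mutants to be tested. Calls here often turned on 1 library. That of *Nup93* was lost without *Ago2* fl/fl replicate 3 or *Ago2* ADH replicate 1 (-0.20 and -0.23) and in *Dicer* without WT replicate 1 or 3 or KO replicate 2 or 3 (-0.20 to -0.28). That of *Bbs2* in *Ago2* ADH was lost without any library but *Ago2* ADH replicate 1 (-0.30 to -0.40). That of *Herpud1* in *Ago2* null was lost without *Ago2* fl/fl replicate 2 or either *Ago2* null library (2.38 to 2.93), and that of *Cpne2* without *Dicer* WT replicate 2 or 3 or *Dicer* KO replicate 2 or 3 (2.14 to 2.43).

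**Figure D3:**
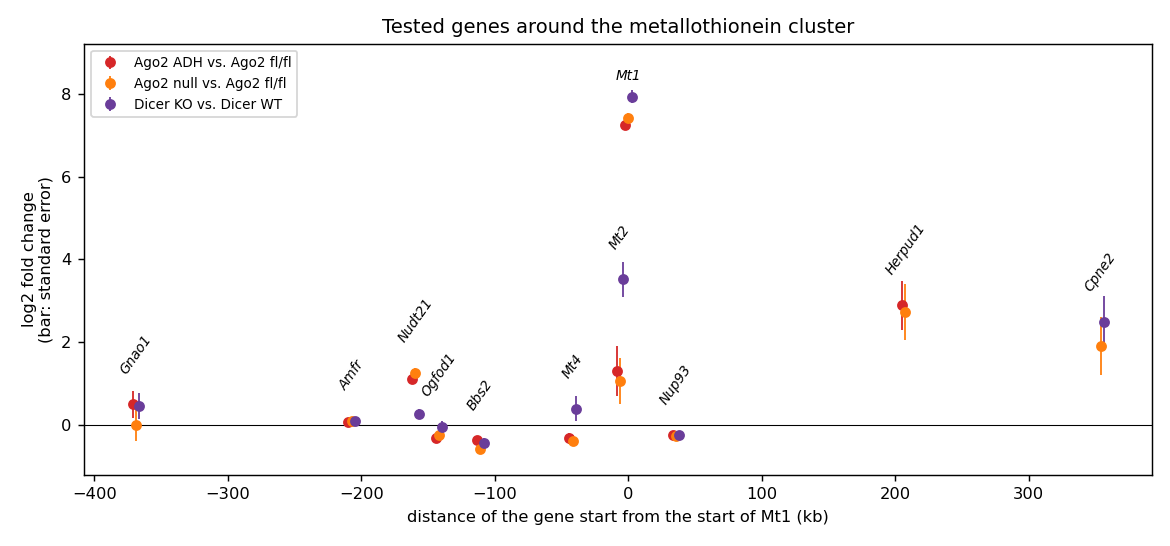
Log2 fold change of the tested genes around the metallothionein cluster against the distance of each gene's start from the start of *Mt1*, in kilobases. Colors are comparisons and bars are SEs, and points of 1 gene are set slightly apart. *Mt1* lies between 7.25 and 7.93, *Mt2* between 1.06 and 3.52, and *Nup93*, the nearest tested gene beyond *Mt1*, lies just below 0.

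Metallothionein genes are also known to respond to copper, oxidative stress and glucocorticoids, so genes of these responses and of iron handling were counted. The counts of each list stand beside a background of 40.7% of all transcripts past the test in *Ago2* ADH (20.5% up), 37.2% in *Ago2* null (18.1% up) and 34.5% in *Dicer* KO (16.7% up), and with lists this short nothing particular to a list is read from them. Among 7 tested copper genes, 1 rose and 3 fell in *Ago2* ADH, 1 rose and 3 fell in *Ago2* null, and 1 rose and 2 fell in *Dicer* KO oocytes. The copper transporter gene *Slc31a2* rose by 0.47 (SE 0.06), 0.34 (SE 0.08) and 0.69 (SE 0.09), whereas *Atp7a*, which encodes the copper export pump, fell by 0.37 (SE 0.07), 0.35 (SE 0.07) and 0.48 (SE 0.07). *Cox17*, a copper chaperone gene of mitochondria, fell by 0.51 (SE 0.09), 0.38 (SE 0.09) and 0.40 (SE 0.11). The *Ago2* null calls of *Slc31a2* and *Cox17* were lost without *Ago2* null replicate 2 (0.23) and *Ago2* null replicate 1 (-0.30), and the *Dicer* call of *Cox17* without WT replicate 1 or 2 or KO replicate 2 or 3 (-0.29 to -0.40).

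Among the iron genes, with the same background, 3 of 7 tested rose and 1 fell in *Ago2* ADH, 3 of 7 rose and 0 fell in *Ago2* null, and 2 of 6 rose and 2 fell in *Dicer* KO oocytes. The ferritin light chain gene *Ftl1* had 2845, 3197 and 2888 counts in *Ago2* fl/fl, 10162, 9072 and 7211 in *Ago2* ADH and 9061 and 8496 in *Ago2* null libraries. *Ftl1* had 1062, 1234 and 1509 counts in *Dicer* WT and 4147, 4188 and 5883 in *Dicer* KO libraries, so mutants and controls did not overlap. The rises were 1.76 (SE 0.06), 1.65 (SE 0.07) and 2.26 (SE 0.10) on the log2 scale, and the heavy chain gene *Fth1* rose by 0.74 (SE 0.07), 0.77 (SE 0.07) and 0.69 (SE 0.08). *Slc11a2*, which encodes the divalent metal importer DMT1, fell by 0.51 (SE 0.08) in *Dicer* KO oocytes.

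Of 13 genes of glutathione synthesis and the oxidative stress response, 6 passed the test in *Ago2* ADH, 4 in *Ago2* null and 4 in *Dicer* KO oocytes, beside 40.7%, 37.2% and 34.5% of all transcripts. Here 5 rose and 1 fell in *Ago2* ADH, 3 rose and 1 fell in *Ago2* null, and 3 rose and 1 fell in *Dicer* KO oocytes. The heme oxygenase gene *Hmox1* rose by 2.31 (SE 0.42), 2.37 (SE 0.36) and 2.26 (SE 0.31), with 15 to 57 counts in *Ago2* fl/fl and 51 to 258 in *Ago2* ADH libraries. *Nfe2l2*, whose product activates these genes, fell by 0.62 (SE 0.08), 0.79 (SE 0.09) and 1.54 (SE 0.10). *Gclc*, the catalytic subunit gene of glutathione synthesis, rose by 0.76 (SE 0.16) in *Dicer* KO oocytes. Of 5 glucocorticoid response genes, 2 rose and 1 fell in *Ago2* ADH, 2 rose and 1 fell in *Ago2* null, and 2 rose in *Dicer* KO oocytes. The kinase gene *Sgk1* rose by 1.05 (SE 0.08), 1.13 (SE 0.08) and 1.14 (SE 0.09), and the clock gene *Per1* by 0.48 (SE 0.11), 0.53 (SE 0.15) and 0.45 (SE 0.13). The calls of *Per1* were lost in *Ago2* ADH without *Ago2* fl/fl replicate 3 (0.36), in *Ago2* null without *Ago2* fl/fl replicate 3 (0.42) or *Ago2* null replicate 1 (0.28), and in *Dicer* without WT replicate 1 or 2 or KO replicate 2 or 3 (0.42 to 0.47). Whether any of these responses had a part in the difference in *Mt1* was not tested.

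**Figure D4:**
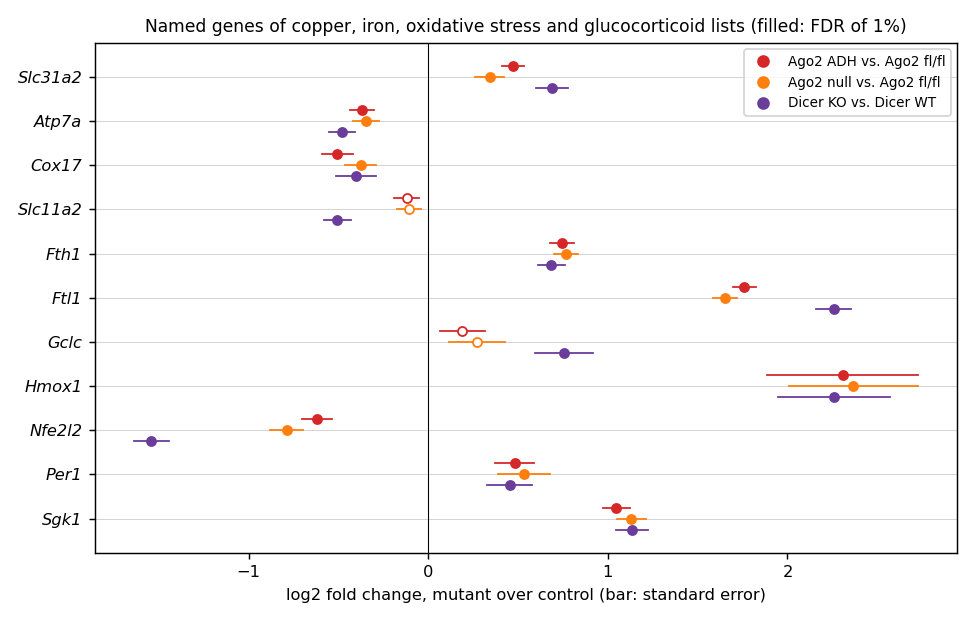
Log2 fold change, mutant over control, of the named genes of copper and iron handling, oxidative stress and glucocorticoid response, with 1 row for each gene, colored by comparison. Bars are SEs, filled circles passed an FDR of 1% and open circles did not. *Ftl1*, *Hmox1* and *Sgk1* lie above 1 in all 3 comparisons and *Nfe2l2* lies below -0.6 in all 3.

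Genes were ranked by how closely their levels followed *Mt1* over the 14 libraries, as Pearson correlations of log2 CPM among 14939 genes. The first 5 were *Rangap1* (r = 0.998), *Optn* (r = 0.996), *Exo1* (r = 0.996), *Tbcd* (r = 0.996) and *Cnnm2* (r = 0.995). They lie on chromosomes 15, 2, 1, 11 and 19. They are outside the lists of zinc, copper, iron, oxidative stress and glucocorticoid genes. Those lists hold few of all genes, so nothing is read from this. *Cnnm2* encodes a protein of divalent cation transport, known for magnesium. Mean levels of *Rangap1* were 8.15 CPM in *Ago2* fl/fl, 84.7 in *Ago2* ADH, 83.5 in *Ago2* null, 6.64 in *Dicer* WT and 78.5 in *Dicer* KO oocytes. The 14 libraries fall into 8 with and 6 without high *Mt1*, so such values describe the split between mutants and controls more than variation within genotypes. By rank correlation instead, 0 of these 5 stayed among the first 5. The correlation of *Mt2* with *Mt1* was 0.669. The genes most like *Mt2* were *Scml4* (r = 0.903), *Ldlrad4* (r = 0.895), *Vmn2r94* (r = 0.883), *Zfp809* (r = 0.883) and *Atpaf2* (r = 0.876). *Vmn2r94* belongs to a receptor family of near-identical copies and its counts are uncertain.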

How the data were processed

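The members and all gene lists were chosen with earlier results of these data known. The authors amplified cDNA from pooled oocytes, aligned paired reads to mm10 with TopHat2 (2.0.7 in the submitters' processing notes), keeping up to 100 alignments, and deposited unnormalized read counts per RefSeq transcript (HTSeq 0.6.1, strand ignored). Transcripts were matched to symbols and GRCm38 positions with RefSeq (26081 of 26495) and GENCODE (113). A tally of reads with several alignments stayed out of library totals, as did reads outside transcripts. The latter were 5.96 to 9.65% of the sum of both tallies and the library total.

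For each comparison, edgeR 4.0.16 (R 4.3.3) was run on the libraries compared, with filterByExpr (minimum count 10, total 15), TMM and the quasi-likelihood test, adjusted by Benjamini-Hochberg over all transcripts tested at an FDR of 1%. It replaces the authors' DESeq test. SEs are |log2 fold change|/√F, and intervals of 95% rest on them. CPM were TMM-scaled over all 14 libraries, so ratios of CPM can differ slightly from fitted values. The fits were also run on simulated counts in which far fewer transcripts changed than were called here. That run cannot show how the fits behave at the shares seen in these data. Alternatives were DESeq2 1.42.0, RLE scaling, no filter, an FDR of 5%, 1 transcript per gene, all 5 groups in one fit, a replicate block and single libraries left out, with library totals without TMM added after seeing the data. Named genes were the 8 members, zinc genes past the test, up to 3 genes of each other list with the largest change in *Dicer* KO, the 5 neighbors on either side of the metallothionein cluster and the 5 genes most like *Mt1* and *Mt2*.

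Replicates are separate pools of oocytes, and p-values measure the spread between such pools. The labels give 2 *Ago2* null libraries, and the paper states 3 or 4 animals per tube. Because the cDNA was amplified and carries no molecular identifiers, detection limits cover counting error only.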

Additional observations from a re-analysis of the deposited data

Results flagged for a closer look

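The effect of *Ago2* ADH differed from that of *Dicer* KO for 5 named genes (edgeR interaction term, FDR of 1%), where 3.55% of 19500 transcripts passed. *Ftl1* and *Nfe2l2* were named for their large change in *Dicer* KO oocytes. That change enters this test too, so their p-values lend no support of their own. The log2 difference was 0.48 for *Slc30a3*, which fell in *Dicer* KO oocytes. It was -0.55 for *Ftl1*, which rose more in *Dicer* KO oocytes (adjusted p = 0.00536), and 0.87 for *Nfe2l2*, which fell more there (adjusted p = 9.17e-05). It was 0.79 for *Nudt21*, which rose in *Ago2* ADH oocytes (adjusted p = 0.00277), and -0.63 for *Dicer1*, whose count rose in both (adjusted p = 4.51e-06). The *Nudt21* difference was lost without *Ago2* fl/fl replicate 2 or 3, *Ago2* ADH replicate 1 or *Dicer* WT replicate 1 (0.72 to 0.77), and that of *Ftl1* held only without *Ago2* fl/fl replicate 1, *Ago2* ADH replicate 1, *Dicer* WT replicate 3 or *Dicer* KO replicate 1 (-0.46 to -0.66 over all libraries left out).

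A tally outside the transcript counts, that of reads with several alignments, was higher in mutants. It took 57.7% of reads on average in *Ago2* ADH and 57.6% in *Ago2* null libraries, against 33.2 to 34.6% in *Ago2* fl/fl, and 46.3% in *Dicer* KO against 25.6 to 31.5% in *Dicer* WT libraries. No gene's count includes these reads.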

How the results depend on the processing

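No call made for the 6 tested genes other than *Mt1* was lost under any of the 13 to 20 alternatives per comparison. Over all transcripts, 9893 of 18835 passed an FDR of 5% in *Ago2* ADH, 9473 of 19236 in *Ago2* null and 8578 of 18570 in *Dicer* KO. Without a filter it was 8163 of 23972, 7844 of 23829 and 6917 of 23717. Without TMM it was 7887 of 18835, 7260 of 19236 and 6593 of 18570. With all 5 groups in one fit, 7178 of 20256 passed in *Ago2* ADH. The counts below stand beside these shares, and nothing particular to zinc genes is read from them. In *Ago2* ADH oocytes the count of the 6 genes past the test, 1, became 3 at an FDR of 5%, by *Slc39a6* and *Mtf1*. It became 2 without a filter, with all 5 groups in one fit or without TMM, and 1 to 2 with single libraries left out, by *Slc39a6*. In *Ago2* null oocytes it became 2 at an FDR of 5%, 2 without a filter and 2 without TMM, by *Slc39a6*, and stayed 1 with single libraries left out. In *Dicer* KO oocytes, 4 became 5 without TMM, by *Slc39a6*, and stayed 4 with single libraries left out. With libraries left out it was 0 in *Ago2* ADH against *Ago2* null and 0 to 1 for the interaction.

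Of the 28 zinc genes, the main fits tested 24 or 25 per comparison. Their count past the test in *Ago2* ADH oocytes, 6, became 11 at an FDR of 5% and 6 to 8 with libraries left out. In *Ago2* null oocytes, 5 became 14 at an FDR of 5%, 8 without a filter and 3 to 5 with libraries left out. For the interaction, 1 became 2 at an FDR of 5%, 2 without a filter, 2 without TMM and 0 to 2 with libraries left out. Over all transcripts, 1638 of 19500 passed there at an FDR of 5%, 959 of 24498 without a filter and 697 of 19500 without TMM. In *Dicer* KO, 7 became 9 at an FDR of 5% and 8 without TMM, and stayed 7 with libraries left out. Leaving out a library also leaves fewer samples; other causes were not tested.

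Some values that passed no test took either sign. *Mtf1* in *Ago2* null was 0.0026 by DESeq2 and 0.0026 by RLE, and *Slc39a6* in *Ago2* ADH against *Ago2* null was 0.0053 with 1 transcript per gene. With single libraries left out, *Ago2* ADH against *Ago2* fl/fl gave *Mt2* -0.0486 to 1.74, *Slc30a1* -0.106 to 0.0577 and *Slc30a3* -0.0820 to 0.0438, and *Ago2* null gave *Mtf1* -0.0553 to 0.0527 and *Slc30a3* -0.0319 to 0.0393. *Dicer* KO gave *Slc30a9* -0.217 to 0.0212. *Ago2* ADH against *Ago2* null gave *Mt2* -1.12 to 1.10, *Slc30a1* -0.0396 to 0.121, *Slc30a9* -0.0536 to 0.119 and *Slc39a6* -0.0868 to 0.0411.

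Replicate numbers did not pair the libraries: deviations of same-numbered libraries correlated by -0.0852 to 0.0426. With the number as a replicate block, the zinc count in *Ago2* null oocytes became 3, where 6041 of 19236 transcripts passed. *Slc30a1* in *Ago2* ADH against *Ago2* null was then -0.0406 and *Slc30a3* in *Ago2* null was 0.0341. Over all transcripts, *Ago2* ADH against *Ago2* null gave 23 calls, against 142 with the block, 94 without a filter, 81 by DESeq2 and 56 at an FDR of 5%, and the interaction gave 692, against 1104 by DESeq2 and 1638 at an FDR of 5%. The precision for *Mt2*, with 4 to 113 counts, and *Mt3*, with 0, is limited by their low counts in libraries of 29380403 or more.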
